A study of Mus musculus with 12 samples.

Results

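Macrophage markers were followed in gonadal tissue captured by laser from E11.5 mouse embryos with and without Cbx2. The set holds 9 genes, C1qa, C1qb, C1qc, Csf1r, Adgre1, Cx3cr1, Mrc1, Aif1 and Tyrobp, and its members are all probe sets that the platform annotation gives to one of these genes alone. That rule found 14 probe sets, of 45037 tested and 34945 assigned to a single gene, where 18193 genes had a probe set of their own. C1qb and Csf1r had 3 probe sets each, Cx3cr1 had 2 and the other members had 1. Within these genes no measured value entered the choice of probe sets. The genes themselves were chosen with earlier results of these data known, so their counts below are descriptive.

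The 12 arrays formed 4 groups of 3, knockout XX (KO XX), knockout XY (KO XY), wild type XX (WT XX) and wild type XY (WT XY), all at E11.5 and all from crosses between Cbx2 heterozygotes. Cbx2 encodes a chromobox subunit of a Polycomb repressive complex, which keeps developmental genes silent. Each array measured amplified RNA from a pool of several embryos, cut from hematoxylin-stained frozen sections where GATA4 immunostaining and morphology placed the gonad, so blood, vessels and macrophages lying inside the cut area came along. The strain, the scan dates and the part of Cbx2 missing from the knockout allele are not stated in the sources. In a bulk sample, fewer or more macrophages and less or more RNA in each macrophage cannot be told apart.

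Macrophages enter embryonic organs before bone marrow exists, and in the early gonad they clear dying cells and take part in remodelling the vessels that pattern the fetal testis. They live on signals through the Csf1 receptor, and they secrete C1q, the recognition molecule of the classical complement pathway, which also tags debris for uptake. Most of the markers here sit in this programme, as secreted C1q chains, as surface receptors or as the adaptor that carries receptor signals inward.

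The 3 C1q chains are encoded side by side, in the order C1qb, C1qc, C1qa on mouse chromosome 4, with no other gene of the RefSeq table between them. The sequences before the C1qb and C1qc starts are shown because these neighbours moved together in the data below. That was not particular to neighbours: Pearson's r over the 12 arrays was 0.912 for C1qb with C1qc and 0.932 for C1qa with Csf1r. They are the 250 bases upstream of the RefSeq start in build GRCm38.p6, written 5′ to 3′ on the gene's own strand, which is the minus strand for both, with capitals marking GAGGAA or its opposite-strand form TTCCTC, the core of sites bound by the myeloid factor PU.1 (encoded by Spi1). The C1qb window lies at chr4:136886201-136886450 and the C1qc window at chr4:136892915-136893164.
C1qb: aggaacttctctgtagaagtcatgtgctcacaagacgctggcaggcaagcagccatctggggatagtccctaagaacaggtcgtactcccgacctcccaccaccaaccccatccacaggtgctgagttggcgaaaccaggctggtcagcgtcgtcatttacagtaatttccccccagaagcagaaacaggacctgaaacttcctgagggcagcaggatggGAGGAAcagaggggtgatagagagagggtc
C1qc: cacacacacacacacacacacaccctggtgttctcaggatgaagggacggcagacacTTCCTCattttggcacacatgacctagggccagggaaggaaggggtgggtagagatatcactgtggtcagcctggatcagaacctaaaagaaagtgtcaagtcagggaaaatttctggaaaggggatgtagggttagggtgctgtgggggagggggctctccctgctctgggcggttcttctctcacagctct
RefSeq promoter windows were matched for 5 of the 9 members, C1qb, C1qc, Cx3cr1, Mrc1 and Aif1. GAGGAA, searched on both strands, was found in 4 of these 5 windows and in 23.3% of 32851 promoter windows of the same length. The C1qb match began 30 bases before the start, the C1qc match 193 bases before it, Mrc1 held 3 matches and Aif1 held 1, while the Cx3cr1 window held none. The longer form GAGGAAGT, which contains GAGGAA, was found in the C1qc window alone, against 2.44% of all windows. TATAAA was found in 0 of the 5 windows and in 12.4% of all windows. These matches describe letters and do not show binding.

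Values are log2 RMA values, on which a difference of 1 is a doubling, and they are compared only within a probe set, because brightness depends on the probes. The files hold no detection calls, so a low value such as that of Aif1 cannot be separated from background. The arrays labelled KO gave Cbx2 values from 9.27 to 9.58 and those labelled WT from 8.46 to 9.04, a difference of 0.63 ± 0.08 upward (± standard error of the limma fit, adjusted p = 0.000109). Since the deleted part is not known, this probe set does not check the labels. For the WT samples GEO's source field gives the KO XX name, unlike their titles and genotype, so KO and WT mean arrays titled so, and every direction below rests on the titles. WT XX replicate 1 had the lowest mean correlation with its own group over all probe sets, 0.9878 where the other arrays lay between 0.9906 and 0.9956. KO XX replicate 1 stood apart in the macrophage markers: it was the highest of all 12 arrays in 10 of the 14 probe sets and the highest of its group in 13. It stood apart in other marker lists described below too. Its mean level was the highest for phagocytic lysosome genes (8.97), other macrophage surface genes (6.19) and general leukocyte markers (6.19). For gonadal somatic genes it was the lowest (9.37), and for erythroid genes (8.48) it lay inside the range of the other arrays. Values without KO XX replicate 1 are given beside several results below. The integrity control, the difference between the 3' and 5' Gapdh control probe sets, ran from 4.78 to 5 in KO XY and 3.89 to 4.57 in WT XY. In XX it ran from 3.81 to 4.23 for KO and 3.83 to 4.72 for WT. It thus separated KO from WT in XY and not in XX.

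Averaged over both sexes, 5 of the 9 macrophage marker genes were called higher in KO gonads, among them all 3 C1q chains. Of the 14 probe sets, 7 rose in KO (limma, Benjamini-Hochberg adjusted p under 0.05 over all probe sets) and 0 fell, at an unadjusted p under 0.05 as well, where over the whole array 9.84% of probe sets were called higher and 7.73% lower. The 7 belonged to 5 genes, C1qa, C1qb with all its 3 probe sets, C1qc, Csf1r with 1 of 3, and Tyrobp. All 14 differences were positive, from 0.10 for Aif1 to 1.11 for C1qb, with a median of 0.47 against -0.01 over all probe sets. At an unadjusted p under 0.05 stood 71.4% of the members and 29% of all probe sets. Every KO array lay above every WT array in 1 of the 14 probe sets, that of C1qa, and in 4.47% of all probe sets.

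**Figure D1:**
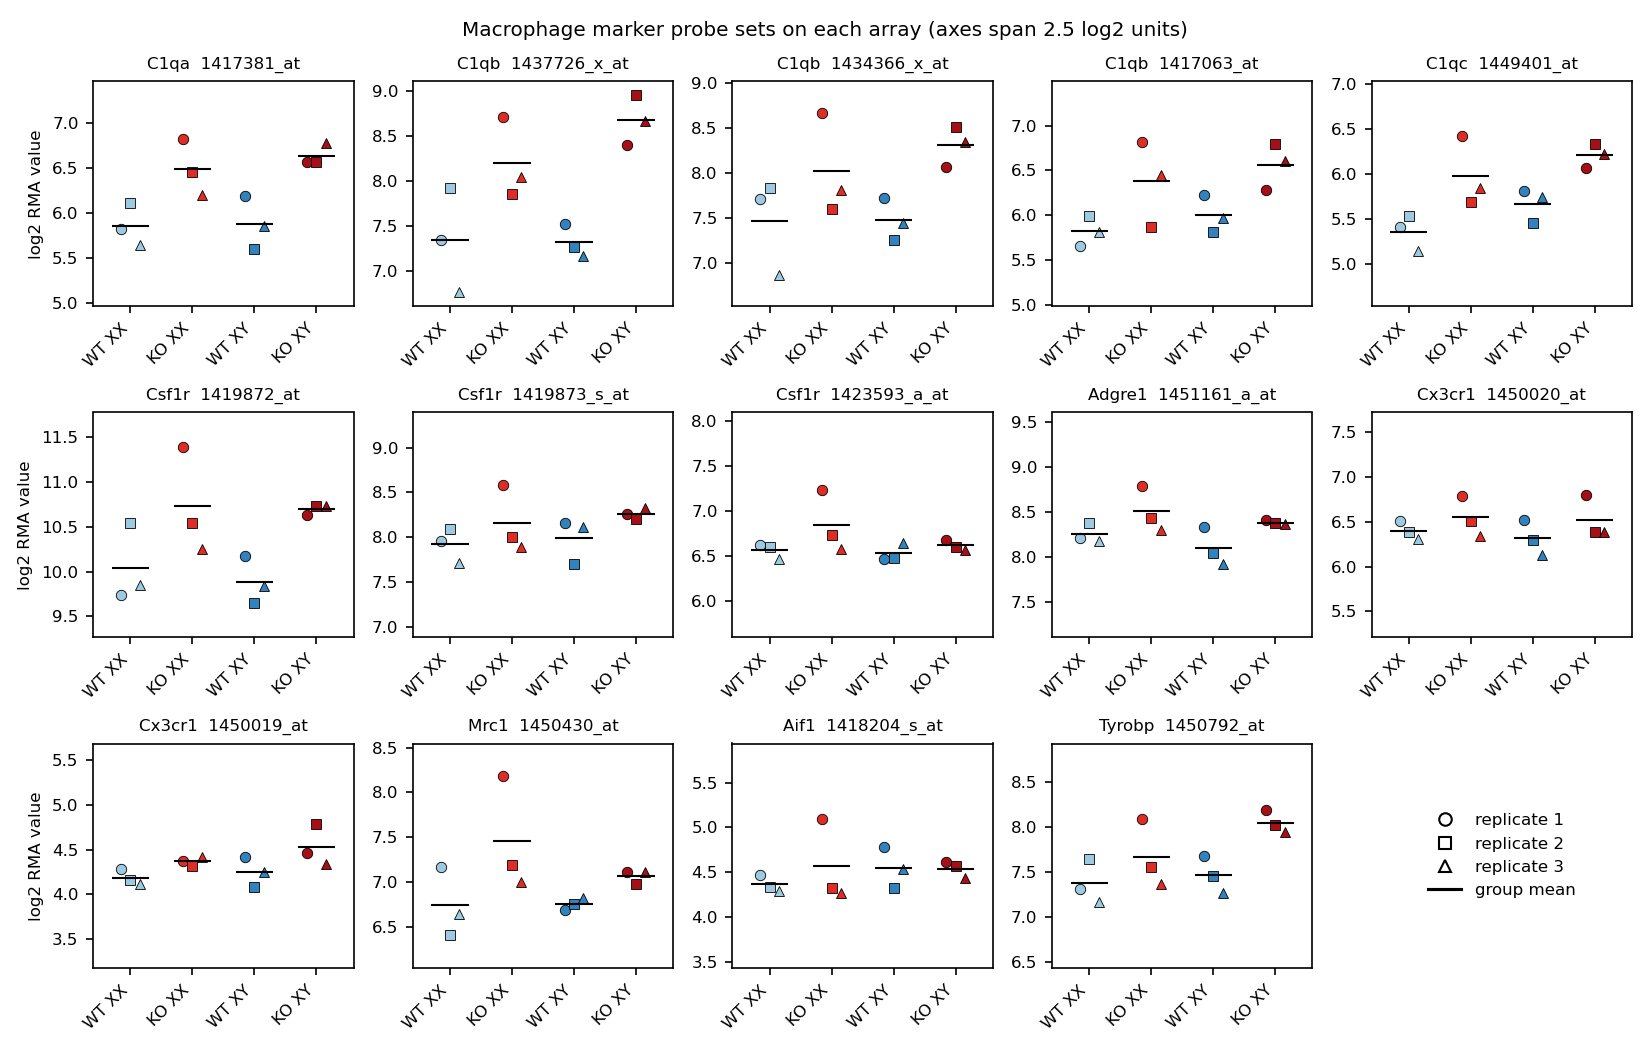
Log2 RMA value of each of the 14 macrophage marker probe sets on each array, 1 panel per probe set, with 3 arrays per group, shapes for the replicate number and a line at the group mean. The C1qa panel shows all 6 KO arrays above all 6 WT arrays, and KO XX replicate 1 is the top point of its group in 13 of 14 panels.

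C1qa, the A chain of C1q, was measured at 6.82, 6.45 and 6.20 in the KO XX pools and 6.56, 6.56 and 6.78 in the KO XY pools. In WT it read 5.82, 6.11 and 5.64 in XX and 6.18, 5.60 and 5.85 in XY. The lowest KO array, at 6.20, thus stood just above the highest WT array, at 6.18. The difference averaged over the sexes was 0.69 ± 0.13 (1.62-fold, adjusted p = 0.00149). C1qa was also called within each sex, at 0.76 ± 0.18 in XY (adjusted p = 0.0163) and 0.63 ± 0.18 in XX (adjusted p = 0.0408). These single-sex calls were less stable than the average: 4 of 21 alternatives ended the one in XY and 11 of 21 the one in XX, the Gapdh covariate and single arrays among them.

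C1qb, the B chain, moved furthest, at probe set 1437726_x_at. Its values were 8.71, 7.85 and 8.04 in KO XX, 8.40, 8.95 and 8.67 in KO XY, 7.34, 7.92 and 6.76 in WT XX and 7.52, 7.26 and 7.16 in WT XY. The XY groups did not overlap, with the lowest KO pool 8.40 and the highest WT pool 7.52, whereas in XX the KO pool at 7.85 lay below the WT pool at 7.92. The average difference was 1.11 ± 0.19 (2.16-fold, adjusted p = 8e-04). In XY it was 1.36 ± 0.27 (2.57-fold, adjusted p = 0.00464), and in XX 0.86 ± 0.27, which missed the threshold (adjusted p = 0.0585).

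The other C1qb probe sets ran the same way and smaller. Probe set 1434366_x_at gave 8.67, 7.60 and 7.81 in KO XX, 8.07, 8.51 and 8.35 in KO XY, 7.71, 7.83 and 6.87 in WT XX and 7.72, 7.26 and 7.45 in WT XY, an average difference of 0.70 ± 0.19 (adjusted p = 0.0225). Its call ended without KO XY replicate 2 or without WT XY replicate 2 (highest adjusted p = 0.0573). Probe set 1417063_at gave 6.82, 5.87 and 6.45 in KO XX, 6.28, 6.79 and 6.60 in KO XY, 5.66, 5.99 and 5.82 in WT XX and 6.23, 5.82 and 5.97 in WT XY, an average difference of 0.55 ± 0.15 (adjusted p = 0.0177). Both separated KO from WT in XY and overlapped in XX. Neither passed within 1 sex, with adjusted p from 0.0781 to 0.247. The suffix _x_at marks probes that can also bind other sequences, so the 3 sizes for this gene are given apart.

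C1qc, the C chain, lay at 6.42, 5.69 and 5.84 in KO XX and 6.07, 6.33 and 6.22 in KO XY. The WT pools read 5.41, 5.53 and 5.14 in XX and 5.81, 5.46 and 5.74 in XY. Within each sex all KO pools stood above all WT pools, although KO XX replicate 2 at 5.69 was below WT XY replicate 1 at 5.81. The average difference was 0.58 ± 0.13 (1.49-fold, adjusted p = 0.00483). In XY it was 0.54 ± 0.18 (adjusted p = 0.0778). In XX it was 0.62 ± 0.18 (adjusted p = 0.0416), and 0.40 ± 0.15 without KO XX replicate 1 (adjusted p = 0.152), a call that 12 of 20 alternatives ended.

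Csf1r, the receptor for Csf1 and Il34 on which macrophages depend, rose at probe set 1419872_at. The values were 11.39, 10.54 and 10.25 in KO XX, 10.63, 10.73 and 10.73 in KO XY, 9.74, 10.54 and 9.85 in WT XX and 10.17, 9.65 and 9.84 in WT XY. The XY groups did not overlap, while in XX WT replicate 2 at 10.54 reached the middle KO pool. The average difference was 0.75 ± 0.18 (1.68-fold, adjusted p = 0.0105). Taken alone, XY gave 0.81 ± 0.26 (adjusted p = 0.0689) and XX 0.69 ± 0.26 (adjusted p = 0.122), which became 0.36 ± 0.22 without KO XX replicate 1.

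The remaining Csf1r probe sets did not pass. At 1419873_s_at the KO pools ranged from 7.89 to 8.58 and the WT pools from 7.70 to 8.16, a difference of 0.25 ± 0.13 (95% interval -0.01 to 0.52, adjusted p = 0.2), or 0.15 without KO XX replicate 1. At 1423593_a_at the KO pools ranged from 6.57 to 7.23 and the WT pools from 6.46 to 6.64, a difference of 0.19 ± 0.10 (-0.03 to 0.41, adjusted p = 0.255), or 0.09 without that array. The 3 probe sets for this receptor thus disagreed in whether the difference was called, and agreed in its sign in each sex.

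The other surface receptors had positive differences that missed the threshold. Adgre1, an adhesion receptor long used to stain mouse macrophages, read 8.79, 8.43 and 8.30 in KO XX, 8.41, 8.37 and 8.36 in KO XY, 8.21, 8.38 and 8.17 in WT XX and 8.33, 8.04 and 7.92 in WT XY. Its average difference was 0.27 ± 0.10 (95% interval 0.05 to 0.48, adjusted p = 0.082), with the KO XY pools just above the WT XY pools and the XX pools overlapping. Mrc1, the mannose receptor, which some endothelial cells also carry, read 8.18, 7.19 and 7.0 in KO XX, 7.12, 6.98 and 7.12 in KO XY, 7.17, 6.41 and 6.65 in WT XX and 6.69, 6.76 and 6.83 in WT XY. Its average difference was 0.51 ± 0.18 (0.13 to 0.89, adjusted p = 0.0608), falling to 0.33 without KO XX replicate 1 (adjusted p = 0.0867).

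Cx3cr1, the fractalkine receptor, changed little on either probe set. At 1450020_at the pools ran from 6.34 to 6.80 in KO and from 6.13 to 6.52 in WT, a difference of 0.18 ± 0.11 (95% interval -0.05 to 0.41, adjusted p = 0.316), or 0.12 without KO XX replicate 1. At 1450019_at they ran from 4.32 to 4.78 in KO and from 4.08 to 4.42 in WT, a difference of 0.23 ± 0.09 (0.03 to 0.42, adjusted p = 0.105). The second of these had all KO XX pools above all WT XX pools, by 4.32 against 4.28.

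Tyrobp encodes the adaptor DAP12, which passes signals from receptors such as Trem2. Its values were 8.09, 7.55 and 7.37 in KO XX, 8.19, 8.02 and 7.94 in KO XY, 7.31, 7.64 and 7.17 in WT XX and 7.68, 7.46 and 7.27 in WT XY. The XY pools separated and the XX pools overlapped. The average difference was 0.44 ± 0.13 (1.35-fold, adjusted p = 0.0287). This call was the least stable of the 7: it ended without any single one of 6 arrays (replicate 1 of KO XX, 1 of KO XY, 1 or 3 of WT XX, 2 or 3 of WT XY) and with the Gapdh integrity difference as a covariate (highest adjusted p = 0.0915).

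Aif1, the calcium-binding protein Iba1 of microglia and other macrophages, was the member with the smallest difference. It read 5.10, 4.33 and 4.27 in KO XX, 4.62, 4.57 and 4.44 in KO XY, 4.47, 4.34 and 4.29 in WT XX and 4.78, 4.33 and 4.54 in WT XY. KO XX replicate 1 held the highest value and KO XX replicate 3 the lowest. The difference was 0.10 ± 0.13 (95% interval -0.19 to 0.38, adjusted p = 0.699), and its sign turned to -0.04 without KO XX replicate 1.

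**Figure D2:**
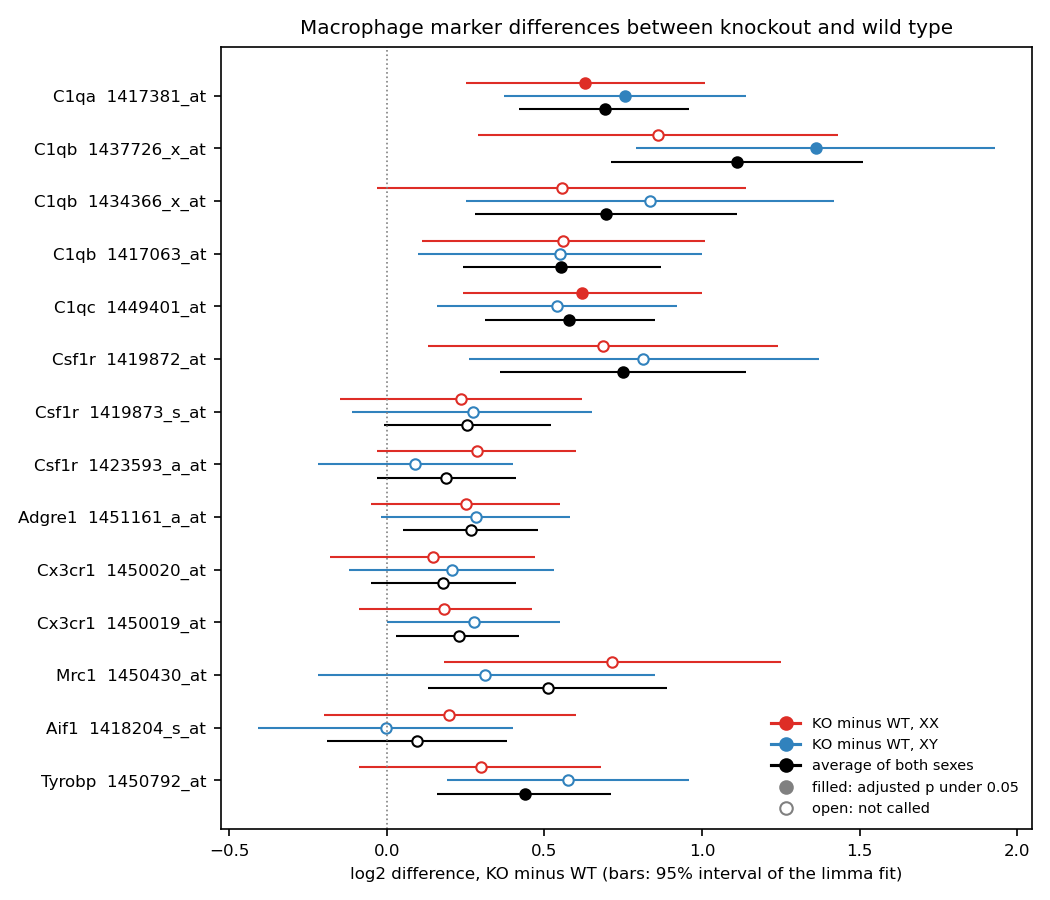
Log2 difference between KO and WT for each macrophage marker probe set, in XX (red), in XY (blue) and averaged over both sexes (black), with 95% intervals of the limma fit and filled points where the adjusted p was under 0.05. The averages are filled for all 5 C1q probe sets, for 1 of 3 Csf1r probe sets and for Tyrobp, and the Aif1 points lie near 0.

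Taken by sex, the same arrays gave fewer calls. In XY gonads 2 of the 14 probe sets rose (C1qa and C1qb 1437726_x_at) and 0 fell, also at an unadjusted p under 0.05 (limma), against a background of 4.24% called higher and 4.65% called lower. All KO XY pools lay above all WT XY pools in 10 of 14 probe sets, where 15.6% of all probe sets did so. The 4 exceptions were Csf1r 1423593_a_at, both Cx3cr1 probe sets and Aif1. The median difference of the members was 0.43 and that of all probe sets 0.01. The XY count was 6 without KO XX replicate 1, whose spread enters the shared error, and 1 without KO XY replicate 3, WT XY replicate 2 or WT XY replicate 3, when C1qb alone passed. With the Gapdh integrity difference as a covariate 0 passed. C1qb then stood at 1.54 ± 0.39 (adjusted p = 0.0608) and C1qa at 0.85 ± 0.27 (adjusted p = 0.16), with wider errors. Among the other members some differences shrank, as from 0.813 to 0.659 for Csf1r 1419872_at and from 0.575 to 0.482 for Tyrobp. Others grew, as from 0.539 to 0.7 for C1qc. Because the covariate itself separated KO XY from WT XY, this fit cannot tell integrity and genotype apart.

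In XX gonads 2 of the 14 rose (C1qa and C1qc) and 0 fell, again also without adjustment, against 5.77% called higher and 3.58% called lower over the array. All KO XX pools stood above all WT XX pools in 3 probe sets, those of C1qa, C1qc and Cx3cr1 1450019_at, where 12.1% of all probe sets did so. The median difference was 0.43 against -0.03 for all probe sets, and 0.21 without KO XX replicate 1. This count rested on single arrays: it was 0 without KO XX replicate 1, any 1 of the KO XY replicates, WT XX replicate 3 or WT XY replicate 3, it was 1 without WT XX replicate 1 or WT XY replicate 1, and it was 4 without WT XX replicate 2. Without KO XX replicate 1 the XX difference was 0.47 ± 0.18 for C1qa (adjusted p = 0.159) and 0.61 ± 0.26 for C1qb 1437726_x_at (adjusted p = 0.219).

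Across both sexes the count was less dependent on that array. Without KO XX replicate 1, 6 of the 7 probe sets stayed past the threshold, all but Tyrobp, with C1qa at 0.61 ± 0.12 (adjusted p = 0.00344), C1qb 1437726_x_at at 0.98 ± 0.18 (adjusted p = 0.00174), C1qc at 0.47 ± 0.10 (adjusted p = 0.00623) and Csf1r 1419872_at at 0.58 ± 0.14 (adjusted p = 0.0142). With single arrays left out the count ran from 5, without WT XY replicate 2, to 9, without KO XX replicate 3. The calls of C1qa, C1qb at 1437726_x_at and 1417063_at, C1qc and Csf1r 1419872_at held in every alternative that tested them for this average. That was 20 alternatives for C1qa, C1qb 1437726_x_at and Csf1r 1419872_at, and 19 for C1qb 1417063_at and C1qc. With the Gapdh difference as a covariate the count was again 7, since Cx3cr1 1450019_at passed (0.31 ± 0.09, adjusted p = 0.0406) where Tyrobp did not.

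Chromosomal sex made no called difference to the markers. Between WT XY and WT XX, 0 of 14 probe sets passed in limma, and 0 at an unadjusted p under 0.05, against 0.0555% of all probe sets called and 8.74% at that unadjusted level. The number called over the whole array was 25, and 2449 without WT XX replicate 1, when the members still gave 0. The WT differences ran from -0.16 for Adgre1 and for Csf1r 1419872_at to 0.31 for C1qc, where the 95% interval was -0.07 to 0.69. Between KO XY and KO XX, again 0 of 14 passed, adjusted or not, against 0.0377% called and 10.6% unadjusted over all probe sets. Here the differences ran from -0.38 for Mrc1 (95% interval -0.92 to 0.15) to 0.47 for C1qb 1437726_x_at (-0.09 to 1.04). The intervals therefore leave room for sex differences of the size printed at their ends.

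The order of the 4 group means followed genotype for most markers. C1qa had 5.86 ± 0.24 in WT XX and 5.88 ± 0.29 in WT XY, then 6.49 ± 0.31 in KO XX and 6.63 ± 0.13 in KO XY (mean ± SD, n = 3). C1qb 1437726_x_at had 7.31 ± 0.19 in WT XY, 7.34 ± 0.58 in WT XX, 8.20 ± 0.45 in KO XX and 8.67 ± 0.28 in KO XY. In both genes neighbours of the same genotype did not differ beyond their spread. Aif1 was the exception, with 4.36 ± 0.09 in WT XX and 4.55 to 4.56 in the other 3 groups. Over the 14 probe sets the SDs ran from 0.02 to 0.28 in KO XY and from 0.05 to 0.63 in KO XX.

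The knockout difference was not shown to depend on sex. The interaction, the KO minus WT difference in XY minus that in XX, passed in 0 of 14 probe sets in limma, and 0 at an unadjusted p under 0.05, against 0.00666% of all probe sets called and 6.44% unadjusted. The estimates ran from -0.40 for Mrc1 (95% interval -1.16 to 0.35) to 0.50 for C1qb 1437726_x_at (-0.30 to 1.31). So although C1qb passed in XY and not in XX, and C1qc in XX and not in XY, neither was shown to respond differently in the sexes.

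**Figure D3:**
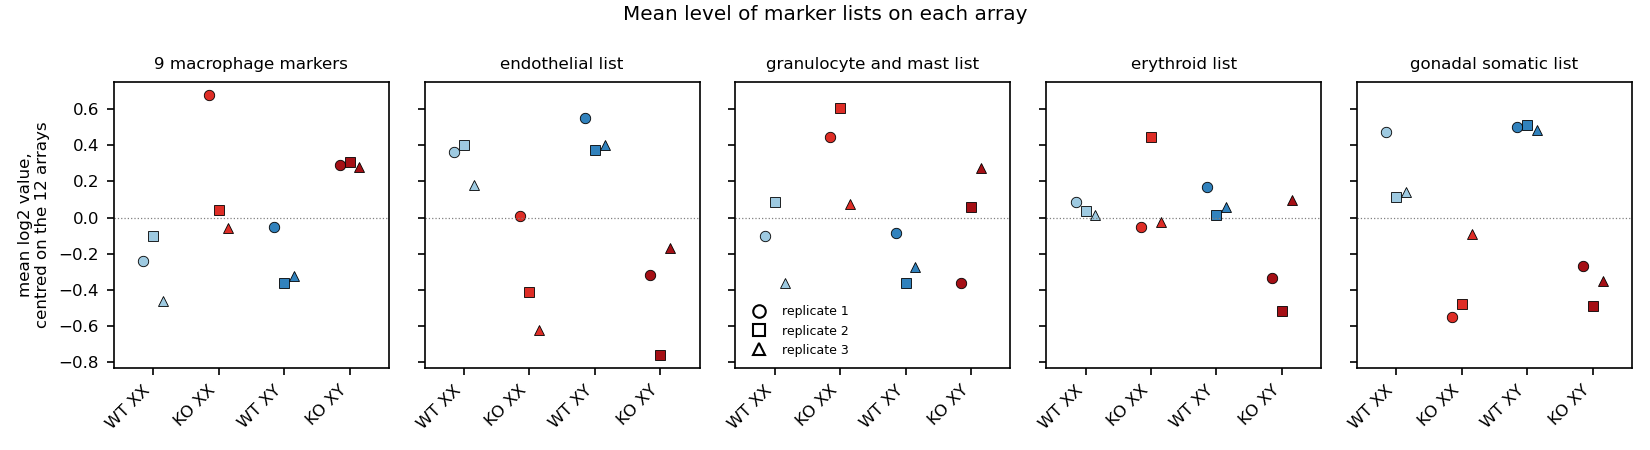
Mean centred log2 value of 5 marker lists on each of the 12 arrays (1 point per array, shapes for the replicate number). The 9 macrophage markers stand at 0.68 in KO XX replicate 1 and between 0.28 and 0.31 in the 3 KO XY arrays, while the endothelial and gonadal somatic lists are lower in KO.

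Over the 12 arrays all pairs of the 9 members correlated positively, but within groups not all of them moved together. With each gene centred on its 12 arrays at its brightest probe set, the mean of the 9 was 0.29, 0.31 and 0.28 in KO XY and 0.68, 0.04 and -0.06 in KO XX. It was -0.24, -0.10 and -0.46 in WT XX and -0.05, -0.36 and -0.32 in WT XY. KO XX replicates 2 and 3 therefore sat nearer to WT than the KO XY pools did. Pearson's r over the 36 pairs of members ran from 0.42 to 0.93 with a median of 0.66 over 12 arrays, which share genotype, normalization and RNA amplification. After group means were taken away, the median was 0.73. Without KO XX replicate 1 the median of these within-group correlations was 0.52 and 8 of the 36 pairs were below 0. All 8 involved Mrc1 or Cx3cr1, and the lowest was that of Mrc1 with Csf1r (-0.638). Other pairs stayed high without that array, as Adgre1 with Tyrobp (0.888), C1qa with Csf1r (0.851) and C1qb with C1qc (0.81). The agreement of Mrc1 with most other members within groups thus leaned on 1 array.

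Over all 12 arrays, the genes whose profile was most like the members' mean, among 34931 single-gene probe sets of other genes, were Nfix (r = 0.95), Plcl1 (0.945), Ms4a6d (0.944), Nkain4 (0.943), Il1rapl1 (0.943) and Gfra2 (0.942). All 6 were higher in KO, by 0.71 to 1.46, and without KO XX replicate 1 their correlations were 0.907 to 0.928. A rise in KO was built into this choice, because the members' mean is itself higher in KO. The correlations without that array, here and below, reuse arrays that picked the genes. Ms4a6d is itself a macrophage surface gene. Nfix is a nuclear factor known from muscle and brain, and Gfra2 is a receptor for neurturin, a neurotrophic factor. After group means were removed, the closest were Gp5 (0.984), Egr3 (0.966), Zfas1 (0.965), Cryba4 (0.964), Add1 (0.96) and Col14a1 (0.959), whose correlations were 0.85 to 0.967 without KO XX replicate 1, and none of them was called between KO and WT (adjusted p from 0.22 to 0.805).

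Other genes of macrophage biology did not move as one, each represented by its brightest probe set in the average over the sexes. Of 28 other surface genes of macrophages, 2 rose and 2 fell, with a median of 0.08 beside -0.01 over all genes, where 12.5% of 18193 genes taken the same way were called higher and 9.44% lower. Tmem119, a marker of microglia that bone and mesenchymal cells also express, rose from 7.05 to 7.33 in the WT arrays to 7.88 to 8.22 in the KO arrays (0.87 ± 0.08, adjusted p = 4.1e-06), with no overlap. Ms4a6d rose by 0.82 ± 0.17 (adjusted p = 0.00379). Pf4, a chemokine of platelets and of some embryonic macrophages, fell by 1.34 ± 0.24 (adjusted p = 0.00118), with KO arrays at 8.54 to 10.25 and WT arrays at 10.29 to 10.91. Itgb2, the shared beta chain of leukocyte integrins, stood at -0.28 ± 0.09 (adjusted p = 0.0371), a call that 12 of 19 alternatives ended, among them leaving out any array but KO XX replicates 1 and 3 and WT XX replicate 3. The number that rose was 4 without KO XX replicate 3, and the number that fell was 1 without any of the arrays that ended the Itgb2 call other than KO XY replicate 1 and WT XY replicate 2. Named here after their values were seen, the Fc receptor gene Fcgr3 (0.44 ± 0.15, adjusted p = 0.0657), the haptoglobin receptor gene Cd163 (-0.08 ± 0.08, adjusted p = 0.566) and the integrin gene Itgam (-0.05 ± 0.07, adjusted p = 0.701) did not pass. Cd163 lay at 2.93 to 3.28 and Itgam at 3.44 to 3.75 over all arrays. Such low values cannot be separated from background, so they do not show that these genes were unchanged.

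Genes of the phagocytic lysosome gave the most upward calls among the macrophage-related lists outside the members. Of 14 measured, 6 rose and 0 fell (1 fell at an unadjusted p under 0.05), with a median of 0.37, read against the 12.5% of all genes called higher. Lyz1, a lysozyme, rose from 8.40 to 9.31 in WT to 9.17 to 10.43 in KO (1.06 ± 0.17, adjusted p = 0.000632), with a small overlap, at an _x_at probe set that its near-identical paralog Lyz2 may share. The Lyz2 probe set stood at 0.39 ± 0.16 and did not pass (adjusted p = 0.106). Lgmn, the protease legumain, rose from 7.04 to 7.43 in WT to 7.50 to 8.03 in KO (0.52 ± 0.09, adjusted p = 0.00104), without overlap. Npc2, a lysosomal cholesterol carrier, was at 0.37 ± 0.09 (adjusted p = 0.0113) and missed the threshold with the Gapdh covariate (adjusted p = 0.0618). Ctsc, cathepsin C, was at 0.46 ± 0.14 (adjusted p = 0.0284). The count of 6 dropped to 3 without KO XX replicate 1, KO XY replicate 3, WT XY replicate 1 or WT XY replicate 2, each of which also ended the Ctsc call, and to 2 with the Gapdh covariate. Lysosomal genes are expressed in most cells, so this list is not specific to macrophages.

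**Figure D4:**
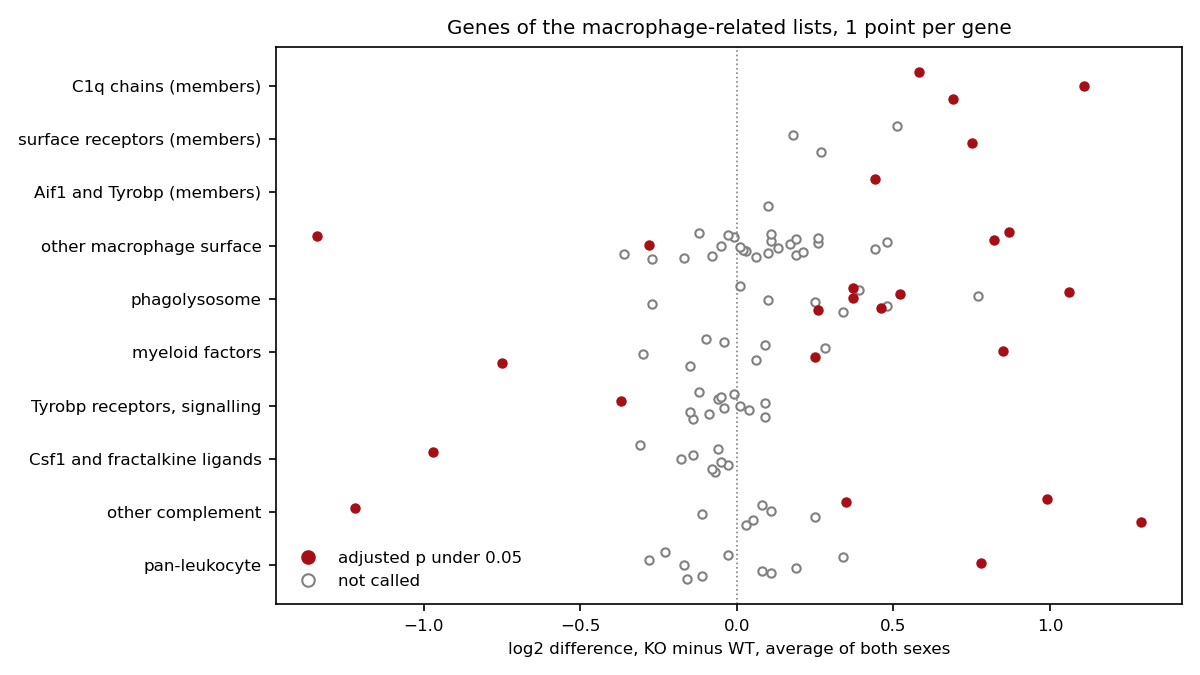
Log2 difference between KO and WT, averaged over both sexes, for each gene of the macrophage-related lists (1 point per gene at its brightest probe set, filled where the adjusted p was under 0.05). The C1q chains and most phagolysosome genes lie to the right of 0, while the lists of Tyrobp receptors and of Csf1 and fractalkine ligands centre near 0 or to its left.

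Among 10 myeloid transcription factors 2 rose and 1 fell, with a median of 0.01, beside 12.5% of all genes called higher and 9.44% lower. Maf, a factor of macrophages that other gonadal cells also use, rose by 0.85 ± 0.19 (adjusted p = 0.00542), from 10.25 to 11.52 in WT to 11.42 to 12.06 in KO. Irf5 stood at 0.25 ± 0.08 (adjusted p = 0.0453), a call that ended in 12 of the alternatives, among them leaving out any array but KO XX replicate 1, KO XY replicate 2 and WT XY replicate 2, and without it 1 factor rose. Cebpb, a factor of inflammatory macrophages and many other cells, fell by 0.75 ± 0.15 (adjusted p = 0.00347), and 2 fell without KO XX replicate 1. Spi1, which encodes PU.1, the factor whose core letters were searched above, was at 5.80 to 6.27 in KO and 6.08 to 6.22 in WT (-0.10 ± 0.07, adjusted p = 0.424).

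Of 13 genes for Tyrobp-linked receptors, related adaptors and downstream signalling proteins, 0 rose (limma, and 0 at an unadjusted p under 0.05) and 1 fell, with a median of -0.05. Over all genes 12.5% were called higher and 9.44% lower, the shares to set beside both lists of this paragraph. The one that fell was Syk, the kinase recruited by the adaptor, by 0.37 ± 0.09 (adjusted p = 0.0115). Trem2, the receptor best known for using it, was at -0.05 ± 0.08 (adjusted p = 0.763). Of 9 ligands and receptors of the Csf1, Csf2, Csf3 and fractalkine families and Tgfb1, 0 rose, also without adjustment, and 1 fell. Cx3cl1, fractalkine itself, fell by 0.97 ± 0.13 (adjusted p = 8.57e-05), from 6.19 to 6.82 in WT to 5.34 to 5.91 in KO with no overlap. The Csf1r ligands stood at -0.07 ± 0.09 for Csf1 (adjusted p = 0.694) and -0.06 ± 0.09 for Il34 (adjusted p = 0.704). The Il34 values, 4.08 to 4.56 over all arrays, were too low to be separated from background.

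Complement genes outside C1q split. Of 10 measured, 3 rose and 1 fell, with a median of 0.09, beside 12.5% higher and 9.44% lower over all genes. C1s1, the serine protease of the C1 complex, rose by 1.29 ± 0.21 (adjusted p = 0.000709), from 4.67 to 5.70 in WT to 5.88 to 7.05 in KO. Serping1, the C1 inhibitor, rose from 8.72 to 9.15 in WT to 9.75 to 10.05 in KO (0.99 ± 0.08, adjusted p = 7.51e-07). Both genes separated all KO from all WT arrays, and both are known products of liver and mesenchymal cells as well as macrophages. C1ra, the partner protease of C1s1, was at 0.03 ± 0.09 (adjusted p = 0.886). The C1ra values, 3.91 to 4.39 over all arrays, were too low to be separated from background. Cfp, properdin, was at 0.35 ± 0.11 (adjusted p = 0.0425), and its call depended on 8 single arrays: replicates 1 and 3 of KO XX, 1 and 3 of KO XY, 1 and 2 of WT XX, and 1 and 2 of WT XY. It also ended with the Gapdh covariate (adjusted p = 0.159). Cd93, once described as a C1q receptor and expressed by endothelium, fell by 1.22 ± 0.13 (adjusted p = 1.55e-05).

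Of 11 general leukocyte markers, 1 rose and 0 fell (0 also without adjustment, in limma), with a median of -0.03. Among all genes 12.5% were called higher and 9.44% lower. Itgal, an integrin chain of lymphocytes and other leukocytes, was the one that rose (0.78 ± 0.15, adjusted p = 0.00243), and 2 rose without KO XY replicate 2. Ptprc, which encodes CD45, ran from 5.12 to 6.76 in KO and from 5.52 to 6.25 in WT (0.34 ± 0.20, adjusted p = 0.283). The summed level of this list was 9.70 to 10.12 in KO XX, 9.69 to 10.02 in KO XY, 9.69 to 10.03 in WT XX and 9.92 to 10.01 in WT XY, so its groups overlapped throughout. That of the 3 C1q chains was 8.53 to 9.27 in KO XX, 8.96 to 9.39 in KO XY, 7.60 to 8.48 in WT XX and 7.94 to 8.29 in WT XY, with KO above WT on all arrays.

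Markers of other cells in the captured area moved beside the members. The counts here are read against 12.5% of all genes called higher and 9.44% called lower. The endothelial list fell in 14 of 16 genes, with a median of -0.81, and its summed level was at most 12.09 in KO XX and 11.41 to 11.88 in KO XY against 12.13 to 12.42 in WT XX and 12.36 to 12.55 in WT XY. Its leading genes were Icam2 (-1.21 ± 0.13, adjusted p = 1.59e-05), Sox17 (-1.35 ± 0.16, adjusted p = 3.28e-05), Emcn (-0.97 ± 0.13, adjusted p = 8.9e-05) and Plvap (-1.16 ± 0.15, adjusted p = 0.000106). Of 8 gonadal somatic genes 4 fell and 2 rose, Tcf21, a mesenchymal factor of the gonadal ridge (0.76 ± 0.12, adjusted p = 0.000482), and Cbx2 itself. Those that fell included Nr5a1 (-2.19 ± 0.12, adjusted p = 2.3e-08) and Gata4 (-1.45 ± 0.12, adjusted p = 1e-06), where GATA4 protein had guided the capture. The summed gonadal level was 13.35 to 13.84 in KO XX, 13.47 to 13.66 in KO XY, 13.74 to 13.98 in WT XX and 14.01 to 14.10 in WT XY. The part of these shifts in the macrophage marker differences was not tested.

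Other blood lineages behaved differently from each other. Their counts over both sexes stand beside 12.5% of all genes called higher and 9.44% called lower. Of 13 granulocyte and mast cell genes 4 rose and 1 fell, with a median of 0.21, and the summed level was 10.17 to 11.08 in KO XX, 9.68 to 10.49 in KO XY, 9.49 to 10.00 in WT XX and 9.51 to 9.82 in WT XY. By sex, 3 of them rose and 1 fell in XX, while 0 were called in XY (limma, 1 higher and 1 lower at an unadjusted p under 0.05). Over all probe sets 5.77% were called higher and 3.58% lower in XX, and 4.24% and 4.65% in XY. The interaction passed in 0 of the 13 (2 negative at an unadjusted p under 0.05), so a dependence on sex was not shown. In the average over the sexes, the neutrophil granule proteins Ngp and Camp stood at 1.65 ± 0.33 (adjusted p = 0.0027) and 0.71 ± 0.18 (adjusted p = 0.0138). S100a9, a calcium-binding protein of neutrophils, was at 0.87 ± 0.22 (adjusted p = 0.014). Ctsg, a granule protease, fell by 0.29 ± 0.08 (adjusted p = 0.016), and 2 genes of the list fell without KO XX replicate 2. Megakaryocyte genes fell in 4 of 7 cases, led by Vwf (-1.11 ± 0.21, adjusted p = 0.00165), which endothelium makes too, and the platelet chemokine gene Ppbp (-2.28 ± 0.47, adjusted p = 0.00366). Erythroid genes were called in 0 of 12 cases (limma, with 2 lower at an unadjusted p under 0.05, and 1 called lower without KO XY replicate 3), and lymphoid genes in 0 of 7 (1 lower unadjusted). Germ cell genes rose in 4 of 8 cases, and in 2 without replicate 2 of KO XX, of KO XY or of WT XY or replicate 3 of WT XX. Split by sex, 4 of the 8 rose in XX and 0 were called in XY (limma, 1 higher at an unadjusted p under 0.05). The interaction passed in 0 of these 8 (2 negative at an unadjusted p under 0.05), so here too a dependence on sex was not shown. The part of these lineages in the macrophage marker differences was not tested either.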

How the data were processed

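Gene expression was measured on Affymetrix mouse arrays in 12 pools of captured E11.5 gonadal tissue, 3 per group. The authors deposited log2 values made with RMA, which corrects background, equalises array distributions and summarises probes. Affymetrix Expression Console and affy are further tools in the submitters' processing notes; no versions were given. The deposited values were used unchanged. Of 45101 probe sets, 64 controls were left out. Gene names came from the platform annotation, and 34741 of 34945 single-gene probe sets were matched by identifier to current symbols.

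Groups came from titles and genotype fields. All 45037 probe sets were fitted with limma 3.58.1 (lmFit and eBayes, 4 group means) in R 4.3.3, and p-values were adjusted by Benjamini-Hochberg within each of 6 contrasts, with a threshold of 0.05. P-values rest on the spread between pools, not embryos, and precision is limited by the number of arrays. The fit was tested on simulated data with known answers.

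Every member probe set is reported. In each other list, up to 4 called genes with the smallest p are named, at the probe set with the highest mean. The members and lists were chosen with earlier results of these data known. Alternatives covered normalization, a filter on low values, 1 probe set per gene, array weights, another variance prior, the groups fitted, a replicate block, a Gapdh 3' minus 5' covariate and leaving out each array. Correlations without KO XX replicate 1 were chosen after seeing the data.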

Additional observations from a re-analysis of the deposited data

How the results depend on the processing

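The count of macrophage marker probe sets called higher in KO over both sexes was 7 and ran from 5 to 9 over the alternatives. In XY the count of 2 was 4 with the low-value filter (a mean of at least 5.92, which left out Aif1, C1qc and Cx3cr1 1450019_at) and 4 with 1 probe set per gene, 7 with array weights, 7 with only the groups compared in the fit, 0 with the Gapdh covariate, and 1 to 6 with single arrays left out. In XX the count of 2 was 0 with array weights, 0 with only the groups compared, 0 with the Gapdh covariate, and 0 to 4 with single arrays left out. The cause was not tested. The counts between the sexes and for the interaction were 0 under all alternatives run. Fitting only 2 groups cannot give the average or the interaction. Over all probe sets, 1908 were called higher in KO XY as deposited, 3637 with array weights and 3135 with only the groups compared. That XY count was 408 with the Gapdh covariate and 1138 to 2892 with single arrays left out. In XX the count of 2600 became 2137 with array weights and 1563 with only the groups compared. It rose to 3327 with the Gapdh covariate, where the member count fell to 0, and was 1801 to 2532 with single arrays left out.

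Aif1 alone changed sign between KO and WT. Its XY difference of -0.004 became 0.004 with arrays centred, 0.016 with array weights and 0.073 with the Gapdh covariate, and ran from -0.113 to 0.111 with single arrays left out. Its XX difference ran from -0.069 to 0.346 and its average from -0.037 to 0.171 with single arrays left out.

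The labels do not say whether replicate numbers pair the arrays. Deviations of same-numbered arrays from their group means correlated at a median of 0.00799 (-0.178 to 0.224, 18 pairs) and those of other pairs at -0.0151. With 3 arrays per group these correlations show no clear pairing and cannot exclude it. With a replicate block the average gave 8 calls, XY gave 3 and XX gave 2. The 3 arrays per group limit the precision to the printed intervals.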
